A study of Mus musculus with 20 samples.

Results

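The 10 genes described here encode subunits of the vacuolar ATPase (V-ATPase) and 1 accessory protein, out of 39056 genes counted in the hippocampus of 20 mice. They were given as a list, and Atp6v0d2 was selected on its own counts in these mice, for its large change over the 4 groups. Its differences between groups are therefore described without a test. The members are Atp6v0d2, Atp6v0d1, Atp6v0a1, Atp6v0a2, Tcirg1 and Atp6v0c of the membrane sector V0, Atp6v1a, Atp6v1b2 and Atp6v1c1 of the cytosolic sector V1, and the accessory gene Atp6ap1. A further 16 subunit genes served for comparison, of which 12 had enough counts to be tested. All 10 members passed the filter on low counts, Atp6v0d2 only through its counts in the transgenic mice.

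The V-ATPase is the rotary proton pump that acidifies lysosomes, late endosomes and synaptic vesicles. ATP is split in V1 by the alternating A and B subunits, a central stalk that stands on subunit d turns the ring of c subunits in V0, and protons pass between that ring and subunit a. Several subunits have more than 1 gene. Atp6v0d1 encodes the form of subunit d found in nearly all cells, while Atp6v0d2 is best known from osteoclasts, macrophages and kidney. Among the genes of subunit a, Atp6v0a1 is the main form in neurons, Atp6v0a2 serves the Golgi and endosomes, and Tcirg1 encodes the a3 form of osteoclasts and of lysosomes in macrophages. In the brain, microglia are the resident macrophages.

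All mice were C57BL/6 females aged 12 to 13 months, no treatment was compared, and RNA came from the left hippocampus of each. By the study's methods, tissue was taken after a battery of behavioural tests, from mice anaesthetised with ketamine and xylazine and perfused. Tg-SwDI mice carry human amyloid precursor protein with the Swedish, Dutch and Iowa mutations under the Thy1 promoter, which drives it in neurons (C57BL/6-Tg (Thy1-APPSwDutIowa)BWevn/Mmjax), and Non-Tg mice lack it. The miR-34a KO mice lack the microRNA in the whole body from conception (B6(Cg)-Mir34ATM1LHE/J), and WT mice are miR-34a+/+. The 4 groups of 5 mice were WT Non-Tg, KO Non-Tg, WT Tg-SwDI and KO Tg-SwDI, and each mouse is named by the replicate number in its label. The microRNA itself was not analysed here.

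Each library held between 19549622 and 21066868 counts on genes. KO Tg-SwDI replicate 8 stood apart, with 14.6% of its counts on mitochondrial genes against 6.94% to 8.76% in the other mice. Several results that involve it are therefore also given without it. The amount of choroid plexus also varied: the summed level of 10 choroid plexus genes ran from 66.5 to 4421 CPM (counts scaled to a library total of 1000000) for WT Non-Tg, 68.7 to 357 for KO Non-Tg, 128 to 3820 for WT Tg-SwDI and 136 to 3970 for KO Tg-SwDI mice. Of these 10 genes, 8 were higher in KO Tg-SwDI than in KO Non-Tg mice at an adjusted p under 0.05, beside 12.5% of all genes tested. The 10 neuronal marker genes summed to 13727 CPM in KO Tg-SwDI replicate 8 and to between 10118 and 11755 CPM in every other library. Levels below are CPM scaled by TMM factors, and comparisons between genes use CPM per kilobase of exon.

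Atp6v0d2 (ENSMUSG00000028238, chromosome 4, 19876841 to 19922605, minus strand, mm10) was almost without reads in Non-Tg mice and present in every Tg-SwDI mouse. The counts were 0, 0, 1, 0 and 2 for WT Non-Tg replicates 2, 3, 4, 6 and 7, and 0, 0, 1, 0 and 0 for KO Non-Tg replicates 1, 2, 4, 7 and 8. They were 79, 81, 83, 94 and 57 for WT Tg-SwDI replicates 3, 4, 5, 6 and 7, and 192, 138, 115, 107 and 166 for KO Tg-SwDI replicates 1, 2, 3, 5 and 8. No Non-Tg mouse came near any Tg-SwDI mouse, and the highest WT Tg-SwDI mouse lay below the lowest KO Tg-SwDI mouse.

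Summed over 5 mice, Atp6v0d2 had 394 counts in WT Tg-SwDI against 3 in WT Non-Tg mice, a ratio of 130 at equal depth (exact 95% interval 44.2 to 634). WT Non-Tg replicate 7 held 2 of those 3 counts, and without it the ratio was 312. In miR-34a KO mice the sums were 718 against 1, a ratio of 759 (exact 95% interval 136 to 30006). With both genotypes summed, 1112 counts stood against 4, a ratio of 284 (exact 95% interval 111 to 1046). These intervals cover counting error only, and both Non-Tg sums are at or under the floor of 3 counts, so no fold is given between the 2 Non-Tg groups. In bulk RNA, more cells of a kind and more RNA per cell cannot be told apart.

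Among Tg-SwDI mice, Atp6v0d2 was higher without miR-34a. It averaged 3.78 ± 0.67 CPM (SD, n = 5) for WT Tg-SwDI and 7.29 ± 1.80 CPM (SD, n = 5) for KO Tg-SwDI mice. The fitted difference was 0.95 on the log2 scale (standard error 0.18), or 0.86 (standard error 0.18) without KO Tg-SwDI replicate 8, and all 5 KO mice lay above all 5 WT mice, beside 2.04% of the 16107 genes tested. Since these values took part in the choice of the gene, no p-value is given for them. In this comparison edgeR's quasi-likelihood test, adjusted by Benjamini-Hochberg, called 0 of the 9 other members and 1.99% of all genes (1.48% higher in KO). At an unadjusted p under 0.05 there were 2, Tcirg1 (higher) and Atp6v1a (lower), and DESeq2 and the exactTest called 0.

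Atp6v0d1 (ENSMUSG00000013160, chromosome 8, 105524465 to 105566047), the other gene of subunit d, was not called in any comparison. WT Non-Tg mice lay at 179 to 200.4 CPM, KO Non-Tg mice at 169 to 185, WT Tg-SwDI mice at 160.5 to 188 and KO Tg-SwDI mice at 169 to 188. The 4 ranges overlapped. The log2 fold change of Tg-SwDI against Non-Tg was -0.12 (95% interval -0.22 to -0.02, adjusted p = 0.207) in WT and 0.01 (95% interval -0.08 to 0.11, adjusted p = 0.862) in KO mice. Between KO and WT Tg-SwDI mice it was 0.01 (95% interval -0.09 to 0.11, adjusted p = 0.917), so changes of the size seen for Atp6v0d2 lie far outside these intervals.

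**Figure D1:**
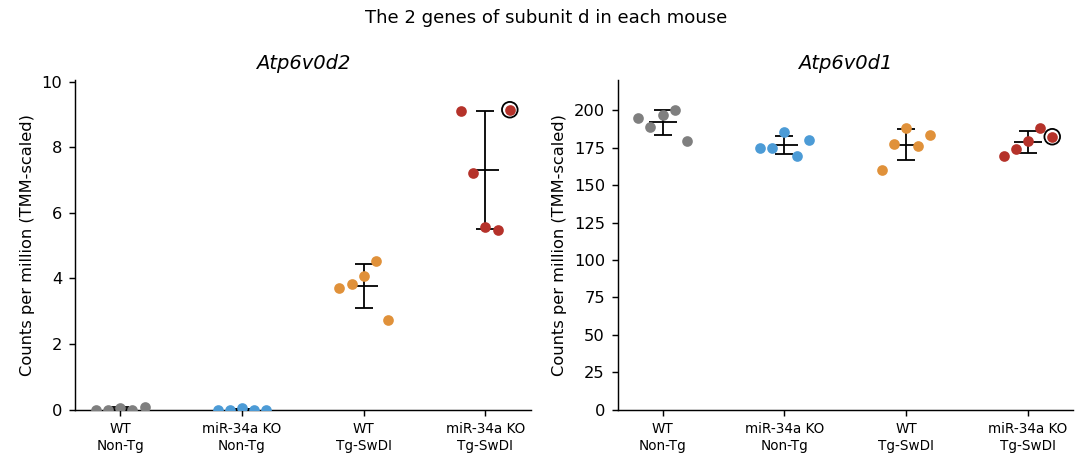
Atp6v0d2 (left) and Atp6v0d1 (right) in CPM in each of 20 mice by group, with the mean and SD of 5 mice as black bars and a ring around KO Tg-SwDI replicate 8. The 10 Non-Tg mice sit at or next to 0 for Atp6v0d2, WT Tg-SwDI mice lie between 2.73 and 4.54 and KO Tg-SwDI mice between 5.49 and 9.14, while Atp6v0d1 lies between 160.5 and 200.4 in all mice.

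Even at its highest, Atp6v0d2 was a small part of the subunit d transcripts. Per kilobase it made up 0.0102% of the pair for WT Non-Tg, 0.00344% for KO Non-Tg, 1.39% ± 0.26 (SD, n = 5) for WT Tg-SwDI and 2.63% ± 0.69 (SD, n = 5) for KO Tg-SwDI mice. The log2 ratio of Atp6v0d2 to Atp6v0d1 averaged -5.53 ± 0.29 for WT Tg-SwDI and -4.63 ± 0.39 for KO Tg-SwDI mice (SD, n = 5 each). The difference was 0.90, with no overlap between the groups, and is a description for the same reason.

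In CPM per kilobase, Atp6v0d2 was last of the 10 members in all 4 groups. In WT Non-Tg mice Atp6ap1 led at 117 ± 3.19, followed by Atp6v0d1 at 107 ± 4.63, Atp6v1b2 at 106 ± 8.24, Atp6v1a at 96.0 ± 2.63 and Atp6v0a1 at 91.0 ± 3.36 (SD, n = 5 each). Atp6ap1 lay clear of the next gene, and the other 4 overlapped with their neighbours in the order. Below them came Atp6v1c1 at 39.7, Atp6v0c at 30.6, Atp6v0a2 at 10.6, Tcirg1 at 2.14 and Atp6v0d2 at 0.0105, each apart from the next. In WT Tg-SwDI mice Atp6v0d2 stood at 1.39 ± 0.25 (SD, n = 5), still below Tcirg1 at 3.30 ± 0.35. In KO Tg-SwDI mice it stood at 2.69 ± 0.66 (SD, n = 5) and its range of 2.02 to 3.37 met that of Tcirg1, 3.34 to 4.76. The ranges met through replicate 8 alone, which had the highest Atp6v0d2 (3.37) and the lowest Tcirg1 (3.34) of the group. Without that mouse Atp6v0d2 reached 3.35 and Tcirg1 began at 3.53, so the ranges were apart, as in the other groups.

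Tcirg1 (ENSMUSG00000001750, chromosome 19, 3896050 to 3907133, minus strand) was, of the 9 members other than Atp6v0d2, the 1 that rose with the transgene in both genotypes. WT Non-Tg replicates 2, 3, 4, 6 and 7 had 10.7, 10.1, 8.78, 8.70 and 10.9 CPM, and KO Non-Tg replicates 1, 2, 4, 7 and 8 had 10.8, 8.68, 8.88, 9.26 and 9.92. WT Tg-SwDI replicates 3, 4, 5, 6 and 7 had 16.2, 16.1, 15.5, 15.9 and 12.3 CPM, and KO Tg-SwDI replicates 1, 2, 3, 5 and 8 had 21.9, 16.5, 18.7, 16.3 and 15.4. Every Tg-SwDI mouse lay above every Non-Tg mouse of its genotype, and the 2 Tg-SwDI groups overlapped.

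Tcirg1 rose by 0.63 on the log2 scale (standard error 0.10, adjusted p = 0.000109) in WT and by 0.90 (standard error 0.10, adjusted p = 1.58e-07) in KO mice, by edgeR's quasi-likelihood test. KO Tg-SwDI exceeded WT Tg-SwDI mice by 0.23 (95% interval 0.02 to 0.43, adjusted p = 0.207). The difference between the transgene effects in the 2 genotypes, the interaction term of the same fit, was 0.28 (95% interval -0.02 to 0.58, adjusted p = 0.314). Without KO Tg-SwDI replicate 8 these last 2 values were 0.27 (adjusted p = 0.151) and 0.33 (adjusted p = 0.228).

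Atp6v0a1 (ENSMUSG00000019302, chromosome 11, 101009452 to 101063719) carried most of subunit a, with 84.8% to 87.7% of its transcripts per kilobase as group means, and was not called in any comparison. Its group means were 597 ± 22.0 CPM for WT Non-Tg, 572 ± 11.9 for KO Non-Tg, 559 ± 16.2 for WT Tg-SwDI and 586 ± 69.0 for KO Tg-SwDI mice (SD, n = 5 each), where replicate 8 had 695. The log2 fold change with the transgene was -0.09 (95% interval -0.22 to 0.03, adjusted p = 0.476) in WT and 0.03 (95% interval -0.09 to 0.16, adjusted p = 0.714) in KO mice. Without replicate 8 the value in KO mice was -0.03 (adjusted p = 0.691). The share of Tcirg1 in subunit a was 2.06% ± 0.26 for WT Non-Tg, 2.06% ± 0.19 for KO Non-Tg, 3.31% ± 0.39 for WT Tg-SwDI and 3.72% ± 0.83 for KO Tg-SwDI mice (SD, n = 5 each). The log2 ratio of Tcirg1 to Atp6v0a1 rose by 0.72 in WT and by 0.86 in KO mice, each with an exact two-sided permutation p of 0.00794 (adjusted p = 0.0132 over 5 planned ratio comparisons, that of subunit d included). Counting the subunit d ratio, whose gene was picked on these mice, lowers that adjusted p. Between KO and WT mice the ratio differed by 0.16 in Tg-SwDI (exact permutation p = 0.421, adjusted p = 0.526) and by 0.01 in Non-Tg mice (exact permutation p = 0.897, adjusted p = 0.897).

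**Figure D2:**
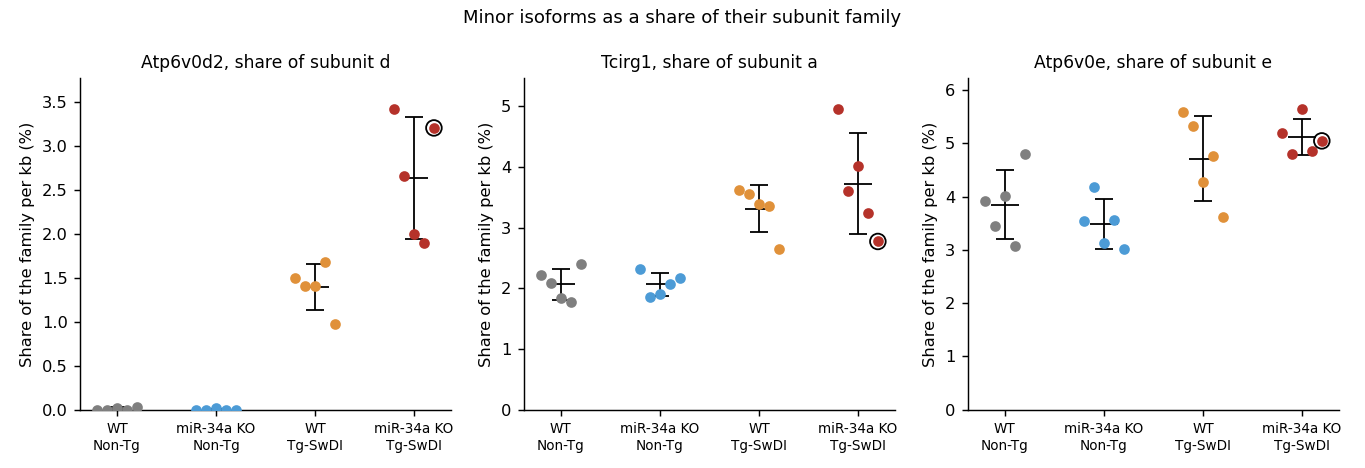
Share of Atp6v0d2 within subunit d, of Tcirg1 within subunit a and of Atp6v0e within subunit e, as a percentage of the family's counts per kilobase, in each of 20 mice by group, with mean and SD of 5 mice and a ring around KO Tg-SwDI replicate 8. Tcirg1 averaged 2.06% in both Non-Tg groups, 3.31% for WT Tg-SwDI and 3.72% for KO Tg-SwDI mice, and all 3 vertical axes start at 0.

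Genes of microglia and of astrocytes were higher in the same mice. Of 10 homeostatic microglia genes, 10 were higher with the transgene in WT and 10 in KO mice, with median log2 fold changes of 0.80 and 1.32. Their summed level ran from 383 to 483 CPM for WT Non-Tg, 383 to 413 for KO Non-Tg, 735 to 875 for WT Tg-SwDI and 891 to 1194 for KO Tg-SwDI mice. Of 15 genes known from microglia around plaques, 15 were higher in each genotype, with median log2 fold changes of 2.29 and 3.03. In KO against WT Tg-SwDI mice, 3 of the 10 and 8 of the 15 were called, all higher in KO. Over all genes, 4.41% and 20.8% were called with the transgene in WT and KO mice, and 1.99% between KO and WT Tg-SwDI mice. Of 7 border macrophage genes, 0 were called in each of these 3 comparisons by edgeR's quasi-likelihood test (1, 2 and 2 at an unadjusted p under 0.05, 0 in each by DESeq2, and 0, 1 and 1 by the exactTest), and their sums stayed between 7.84 and 20.9 CPM. Of 8 astrocyte genes, 5 were higher in WT and 5 in KO mice with the transgene, with Gfap highest at log2 fold changes of 1.63 and 2.26, and 1, Gfap, was called between KO and WT Tg-SwDI mice. Their summed level ran from 4105 to 4387 CPM for WT Non-Tg, 4282 to 4571 for KO Non-Tg, 5236 to 6166 for WT Tg-SwDI and 5544 to 7035 for KO Tg-SwDI mice. Of 7 oligodendrocyte genes, 1 was higher with the transgene in WT and 5 in KO mice, beside 3.94% and 12.5% of all genes. Of 10 neuronal genes, 0 were called in WT mice (1 by DESeq2) and 2, Syt1 and Gad1, were lower in KO mice. Over all genes 8.31% were lower there. Of 7 endothelial genes, 1, Tek, was lower in WT mice and 0 were called in KO mice. The part of any of these cell types in the members' differences was not tested.

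Set against the mean log2 level of the 10 homeostatic microglia genes, a measure chosen after seeing the data, Tcirg1 was lower with the transgene. Relative to that mean, Tcirg1 fell by 0.23 in WT (exact two-sided permutation p = 0.0476, adjusted p = 0.0476 over 3 such comparisons, that of Atp6v0d2 included) and fell by 0.36 in KO mice (exact permutation p = 0.0159, adjusted p = 0.0238), while the mean itself rose by 0.85 and 1.25. Counting Atp6v0d2, which was picked on these mice, lowers the adjusted p in KO mice. Atp6v0d2, as a description, averaged 0.61 more relative to the same mean in Tg-SwDI mice without miR-34a, where the mean differed by 0.30. The ratio to one list does not measure RNA per cell, and the part of cell number in these results was not tested.

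Atp6v0a2 (ENSMUSG00000038023, chromosome 5, 124628576 to 124724455) was higher with the transgene in KO mice by a small amount. KO Non-Tg mice lay at 69.1 to 76.8 CPM and KO Tg-SwDI mice at 74.8 to 87.5, and the 2 ranges overlapped. The difference was 0.16 on the log2 scale (standard error 0.05, adjusted p = 0.0265), or 0.19 (adjusted p = 0.00960) without KO Tg-SwDI replicate 8. In WT mice it was 0.10 (95% interval -0.01 to 0.21, adjusted p = 0.365). The call in KO mice was lost without KO Tg-SwDI replicate 3 (adjusted p = 0.0882) and without KO Non-Tg replicates 1, 4, 7 or 8 (adjusted p = 0.0546, 0.0630, 0.0668 and 0.0504). An antisense gene, 4930404A12Rik, overlaps Atp6v0a2, and the strand setting of the counting is not given in the sources used here.

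Atp6v0c (ENSMUSG00000024121, chromosome 17, 24163866 to 24169702) encodes the ring subunit c and was not called. Its means were 104 ± 4.96, 103 ± 4.24, 98.5 ± 4.33 and 94.8 ± 5.48 CPM for WT Non-Tg, KO Non-Tg, WT Tg-SwDI and KO Tg-SwDI mice (SD, n = 5 each). The log2 fold change with the transgene was -0.07 (adjusted p = 0.537) in WT and -0.12 (95% interval -0.22 to -0.02, adjusted p = 0.0856) in KO mice. Without KO Tg-SwDI replicate 8 the value in KO mice was -0.08 (adjusted p = 0.203). It has processed pseudogenes elsewhere in the genome that can share its reads, so its counts are uncertain to that degree.

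Of the 3 members in the cytosolic sector, 2 were lower with the transgene in miR-34a KO mice, Atp6v1b2 and Atp6v1a. Atp6v1b2 (ENSMUSG00000006273, chromosome 8, 69088646 to 69113711), the B subunit of brain, was at 515, 539.5, 589, 555 and 583 CPM for KO Non-Tg replicates 1, 2, 4, 7 and 8. KO Tg-SwDI replicates 1, 2, 3, 5 and 8 had 459, 510.3, 509, 497 and 364 CPM, so each lay below each KO Non-Tg mouse and replicate 8 lay lowest. The difference was -0.25 on the log2 scale (standard error 0.07, adjusted p = 0.0150), or -0.17 (adjusted p = 0.0276) without replicate 8. In WT mice, at 561 ± 43.7 CPM in Non-Tg and 509 ± 17.9 CPM in Tg-SwDI (SD, n = 5 each), it was -0.14 (95% interval -0.29 to 0.01, adjusted p = 0.361), and the interaction was -0.11 (95% interval -0.32 to 0.11, adjusted p = 0.600). Without replicate 8 the interaction was -0.03 (adjusted p = 0.892).

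Atp6v1a (ENSMUSG00000052459, chromosome 16, 44085402 to 44139705), the A subunit that binds ATP for splitting, was at 584, 576, 629.8, 597 and 594 CPM for KO Non-Tg replicates 1, 2, 4, 7 and 8 and at 509.9, 600.0, 570.5, 519 and 478 CPM for KO Tg-SwDI replicates 1, 2, 3, 5 and 8. The 2 groups overlapped through KO Tg-SwDI replicate 2. On the log2 scale the fold change was -0.15 (SE 0.05, adjusted p = 0.0387), and -0.11 (adjusted p = 0.0937) without replicate 8, which ends the call. In WT mice it was 0.00126 (95% interval -0.11 to 0.11, adjusted p = 0.995), and the interaction was -0.16 (95% interval -0.31 to 0.00233, adjusted p = 0.280). Leaving out any of 7 other mice also took the adjusted p of Atp6v1a over 0.05, WT Non-Tg replicate 2 (0.0538), KO Non-Tg replicates 1, 4, 7 and 8 (0.0536, 0.106, 0.0697 and 0.0686) and KO Tg-SwDI replicates 1 and 5 (0.0863 and 0.0895).

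With the choroid plexus level as a covariate, the log2 fold change in KO mice was 0.11 (adjusted p = 0.339) for Atp6v0a2, -0.08 (adjusted p = 0.497) for Atp6v1a, -0.15 (adjusted p = 0.294) for Atp6v1b2, and only the call of Tcirg1 remained of the 4. In that fit 7.46% of all genes were called in this comparison, against 20.8% in the fit without it.

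Atp6v1c1 (ENSMUSG00000022295, chromosome 15, 38661933 to 38692446), the subunit C that links V1 to V0 and is released when the pump comes apart, was not called. Its means were 223 ± 18.9, 215 ± 13.6, 207 ± 10.8 and 204 ± 5.09 CPM for WT Non-Tg, KO Non-Tg, WT Tg-SwDI and KO Tg-SwDI mice (SD, n = 5 each), with log2 fold changes with the transgene of -0.10 (adjusted p = 0.397) in WT and -0.07 (adjusted p = 0.378) in KO mice. Atp6ap1 (ENSMUSG00000019087, chromosome X, 74297097 to 74304721), the accessory protein also known as Ac45, lay between 324 and 383 CPM in all 20 mice, and its log2 fold changes with the transgene were -0.05 (95% interval -0.15 to 0.05) and 0.05 (95% interval -0.05 to 0.15).

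**Figure D3:**
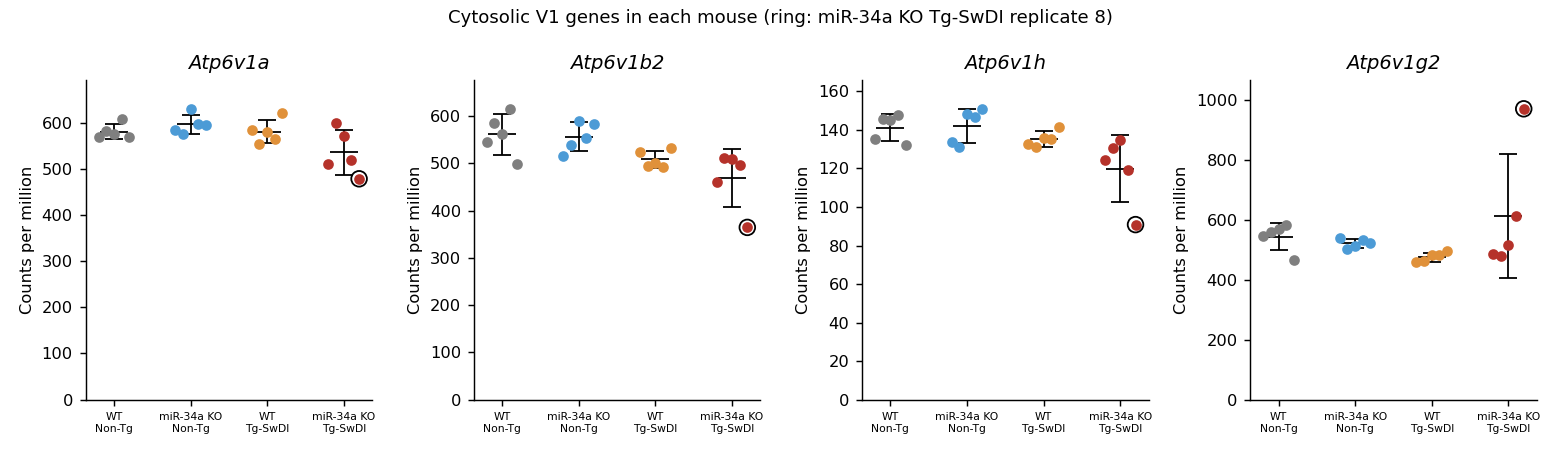
Levels, in CPM, of Atp6v1a, Atp6v1b2, Atp6v1h and Atp6v1g2, genes of the cytosolic sector, in each of 20 mice by group, with mean and SD of 5 mice. The ring marks KO Tg-SwDI replicate 8, which is lowest of its group for Atp6v1a (478), Atp6v1b2 (364) and Atp6v1h (90.9) and highest of all mice for Atp6v1g2 (971).

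Counted together, 1 of the 9 members other than Atp6v0d2 was higher with the transgene in WT mice (Tcirg1) and 0 were lower, where 4.41% of all 16107 genes tested were called, 3.94% higher and 0.466% lower. In KO mice 2 of 9 were higher (Tcirg1 and Atp6v0a2) and 2 of 9 lower (Atp6v1a and Atp6v1b2), where 20.8% of all genes were called, 12.5% higher and 8.31% lower. With library size in place of TMM factors, 1675 of all genes were higher and 1792 lower in that comparison, against 2013 and 1338 with TMM. For KO against WT in Tg-SwDI mice the split moved from 239 higher and 81 lower to 102 and 115. Groups did not overlap for 1 member that was higher (Tcirg1) and 1 that was lower (Atp6v1b2) in KO mice, beside 8.47% and 4.29% of all genes, and for Tcirg1 alone in WT mice, beside 5.1% of all genes.

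The median log2 fold change of the 9 members was -0.07 in WT and 0.01 in KO mice, beside medians of 3.21e-05 and -0.00483 over all genes. Between KO and WT Non-Tg mice 0 of 9 members were called, as were 0% of all genes, by edgeR's quasi-likelihood test (1 member, Atp6v0d1, at an unadjusted p under 0.05, 0 by DESeq2 and 0 by the exactTest). For the interaction, 0 of 9 were called beside 0.608% of all genes (1 member, Atp6v1a, at an unadjusted p under 0.05, and 0 by DESeq2). The 2 comparisons of Tg-SwDI with Non-Tg mice use separate mice, while KO against WT in Tg-SwDI shares mice with both.

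**Figure D4:**
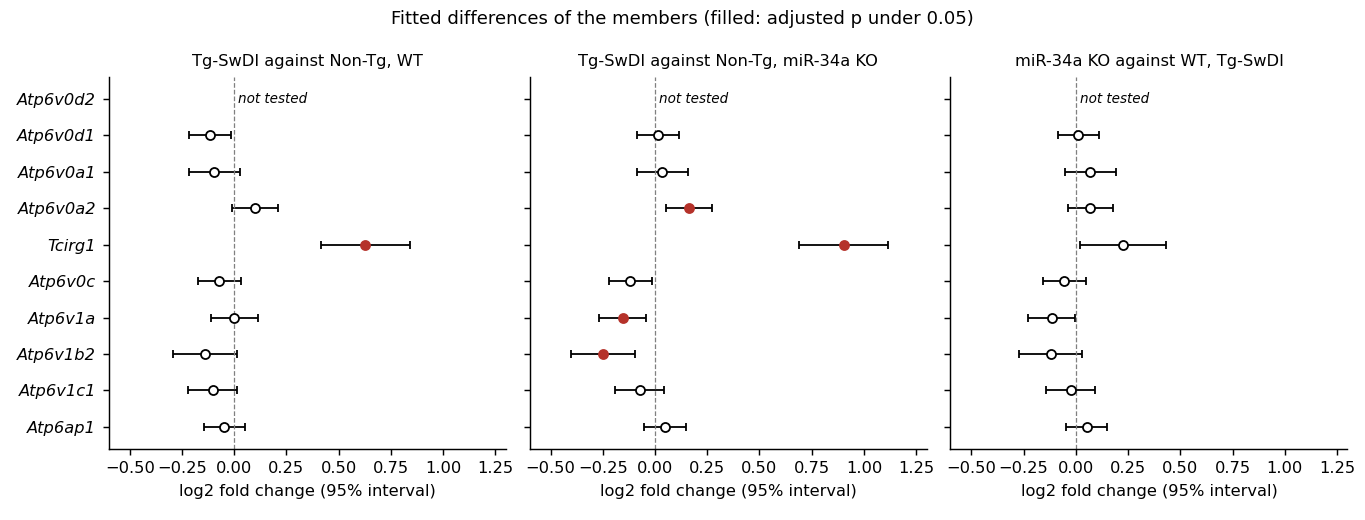
Log2 fold changes with 95% intervals for the 9 members other than Atp6v0d2, for Tg-SwDI against Non-Tg in WT (left) and KO mice (middle) and for KO against WT in Tg-SwDI mice (right), with filled points at an adjusted p under 0.05. Tcirg1 is filled at 0.63 and 0.90, Atp6v0a2 (0.16), Atp6v1a (-0.15) and Atp6v1b2 (-0.25) are filled in the middle panel, none is filled on the right, and Atp6v0d2 is marked as not tested in all 3 panels.

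Of the 12 other subunit genes tested, 0 were called with the transgene in WT mice by edgeR's quasi-likelihood test (2 at an unadjusted p under 0.05, and 0 by DESeq2 and by the exactTest), and 1 rose and 1 fell in KO mice. Over all genes 4.41% were called in WT mice, and in KO mice 12.5% were higher and 8.31% lower. Atp6v0e, the widely expressed gene of the small V0 subunit e, rose by 0.50 on the log2 scale (standard error 0.10, adjusted p = 0.000546), from 18.8 to 25.3 CPM in KO Non-Tg to 28.5 to 33.2 CPM in KO Tg-SwDI mice, with no overlap, beside 8.47% of all genes higher without overlap. In WT mice its log2 fold change was 0.20 (adjusted p = 0.309) and the interaction was not called (0.29, adjusted p = 0.263). Its share of subunit e went from 3.49% ± 0.46 in KO Non-Tg to 5.12% ± 0.34 in KO Tg-SwDI mice and stood at 3.85% ± 0.65 for WT Non-Tg and 4.72% ± 0.79 for WT Tg-SwDI mice (SD, n = 5 each). Its partner Atp6v0e2, the form abundant in brain, had log2 fold changes of -0.10 (adjusted p = 0.281) in WT and -0.08 (adjusted p = 0.230) in KO mice.

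Atp6v1h, the regulatory subunit H of V1, fell by 0.24 on the log2 scale in KO mice (standard error 0.07, adjusted p = 0.0172), from 131 to 151 CPM in KO Non-Tg to 90.9 to 135 CPM in KO Tg-SwDI mice. Without replicate 8 it fell by 0.16 (adjusted p = 0.0233), and it was not called in the fit of the 2 compared groups alone (adjusted p = 0.0679), with the choroid plexus covariate (adjusted p = 0.271) or with GC content and length trends removed (-0.13, adjusted p = 0.163). Atp6v1g2, the G subunit of neurons, was at 481 to 613 CPM in 4 KO Tg-SwDI mice and at 971 in replicate 8. Without that mouse it was lower with the transgene in WT mice at -0.20 (adjusted p = 0.0487), against -0.19 (adjusted p = 0.579) with it, although the mouse is in neither group, because all 4 groups share the estimate of the spread. Both genes overlap another gene on the genome. Atp6v0a4, Atp6v1b1, Atp6v1e2 and Atp6v1g3, known mainly from kidney, epididymis or testis, did not pass the filter, and their group sums were at most 37 counts. The member Atp6v1b2 held at least 99.9% of subunit B, and Atp6v1c1 between 99.0% and 99.3% of subunit C as group means.

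Genes that assemble or regulate the pump were taken as a list of 21, of which 20 were tested. In WT mice, where 3.94% of all genes were higher, 1 rose. It was Mitf (0.38, adjusted p = 0.0368), which encodes a transcription factor of the family that drives lysosomal genes. In KO mice 4 rose and 6 fell, where 12.5% of all genes were higher and 8.31% lower. Those that rose were Mitf (0.53, adjusted p = 0.000723), Tfeb (0.35, adjusted p = 0.00886) and Tfe3 (0.21, adjusted p = 0.00696), the 3 members of that family on the list, and Lamtor1 (0.22, adjusted p = 0.0115), which anchors the Ragulator complex to lysosomes. Those that fell were Dmxl2 (-0.28), Dmxl1 (-0.19) and Wdr7 (-0.17), whose proteins help to join V1 to V0, and Ncoa7 (-0.26), Oxr1 (-0.17) and Tbc1d24 (-0.20), whose proteins carry a TLDc domain, with adjusted p-values between 0.000659 and 0.0462. The median over the 20 genes was 0.06 in KO mice. With the choroid plexus level as a covariate, 2 of the 20 were called in KO mice, Ncoa7 and Tfe3. With GC content and length trends removed, 5 of the 20 were called, and Dmxl1 turned to 0.0448 (adjusted p = 0.671). Leaving out 1 mouse ended the call of Dmxl1 for 14 mice, of Oxr1 for 13, of Wdr7 for 3 and of Mitf in WT mice for 6.

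Tfe3 was also the only gene of the list called between KO and WT Tg-SwDI mice, at 46.2 to 56.2 CPM against 39.9 to 44.9 CPM (log2 fold change 0.23, standard error 0.06, adjusted p = 0.0289). Without KO Tg-SwDI replicate 8 it was 0.18 (adjusted p = 0.0433). The call was lost without WT Tg-SwDI replicate 3, 4 or 5 (adjusted p = 0.0813, 0.0576 and 0.0708), in the fit of the 2 compared groups alone (adjusted p = 0.133) and with library size alone (adjusted p = 0.0607). Among 10 channels and transporters of the lysosome, Tpcn1 (0.35, adjusted p = 0.0172) and Tpcn2 (0.43, adjusted p = 0.0383) rose and Clcn3 (-0.15, adjusted p = 0.0244) fell in KO mice. Over all genes 12.5% were higher and 8.31% lower in that comparison. With the choroid plexus level as a covariate 0 of the 10 were called. Leaving out 1 mouse ended the call of Tpcn1 for 2 mice, of Tpcn2 for 6 and of Clcn3 for 4, and Clcn3 turned to 0.0353 (adjusted p = 0.521) with GC content and length trends removed. In WT mice 0 of the 10 were called by edgeR's quasi-likelihood test, with 0 also at an unadjusted p under 0.05, by DESeq2 and by the exactTest.

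Atp6v0d2 and Tcirg1 are both used by osteoclasts, so 11 further osteoclast genes were followed, of which 7 were tested. With the transgene 2 of the 7 rose in WT and 3 in KO mice, beside 3.94% and 12.5% of all genes. Between KO and WT Tg-SwDI mice 0 of the 7 were called by edgeR's quasi-likelihood test, beside 1.99% of all genes. At an unadjusted p under 0.05 there were 2, and DESeq2 and the exactTest each called 1, Nfatc1. Nfatc1, the transcription factor that directs osteoclast formation, rose by 0.57 in WT (adjusted p = 0.000824) and by 0.99 in KO mice (standard error 0.11). Its levels were 6.50 to 9.46 CPM for WT Non-Tg, 6.97 to 9.20 for KO Non-Tg, 10.8 to 13.2 for WT Tg-SwDI and 13.9 to 16.7 for KO Tg-SwDI mice. The 2 Tg-SwDI groups did not overlap (log2 fold change 0.37, adjusted p = 0.0573), where 2.04% of all genes were higher in KO without overlap. Itgb3, the integrin chain of the osteoclast attachment ring, rose by 1.07 (adjusted p = 5.26e-05) in WT and 1.28 in KO mice. Tnfrsf11a, the receptor RANK, rose in KO mice (0.39, adjusted p = 0.0474). Acp5 and Ctsk, enzymes of mature osteoclasts, were not called with the transgene in either genotype, Acp5 at 0.47 (adjusted p = 0.624) in WT and 1.08 (adjusted p = 0.0873) in KO mice and Ctsk at -0.19 (adjusted p = 0.750) and 0.08 (adjusted p = 0.836). The call of Tnfrsf11a was lost without any of 15 mice (adjusted p of 0.0501 to 0.148). Microglia also express Tnfrsf11a, and the source of these reads was not tested. The rest of the list, Dcstamp, Ocstamp, Oscar, Mmp9, Calcr and Siglec15, held no called gene. Over the 7 tested genes the log2 fold changes with the transgene ran from -0.19 to 1.07 in WT mice (median 0.35). In KO mice they ran from -0.22 to 1.28 (median 0.39).

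Over the 10 Tg-SwDI mice, the genes whose log2 level ran most like that of Atp6v0d2 were sought among 14481 genes with a mean of at least 1 CPM. The 5 nearest were Trem2 (Pearson's r 0.957, Spearman's rho 0.939), Baiap2l2 (0.949 and 0.964), Plekhg2 (0.944 and 0.927), Cst7 (0.941 and 0.903) and Cd37 (0.939 and 0.927). Trem2 is a receptor of microglia, Cst7 encodes cystatin F and Cd37 a tetraspanin of leukocytes. Without the 2 mice farthest from the median of Atp6v0d2, KO Tg-SwDI replicates 1 and 8, r was 0.921, 0.930, 0.900, 0.928 and 0.891. These values are a description over mice of 2 genotypes between which Atp6v0d2 does not overlap, so they hold part of the difference between the genotypes, and 5 mice of one genotype are too few for a correlation.

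Trem2 was at 58.1 to 71.7 CPM for WT Tg-SwDI and 72.2 to 104.6 CPM for KO Tg-SwDI mice, and at 9.45 to 14.3 CPM in the 10 Non-Tg mice. It thus had reads in every Non-Tg mouse, where Atp6v0d2 had almost none. Cst7 was nearer to Atp6v0d2 in that respect, at 0.19 to 1.09 CPM in Non-Tg and 63.0 to 119 CPM in Tg-SwDI mice.

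The other members spread widely by the same measure. Tcirg1 had an r of 0.659 and a rho of 0.442, Atp6v0d1 an r of -0.08, Atp6v0c -0.66, Atp6v1b2 -0.70 and Atp6v1a -0.72. Without the same 2 mice these r values were 0.742, 0.02, -0.22, -0.44 and -0.34. For the remaining members, r went from 0.30 to 0.71 for Atp6v0a2 and from 0.27 to 0.03 for Atp6v0a1 without those mice. It went from 0.22 to 0.31 for Atp6ap1 and from -0.16 to -0.31 for Atp6v1c1. No member was therefore among the 5 nearest, and the genes of the membrane and cytosolic sectors did not share one pattern over these mice.

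**Figure D5:**
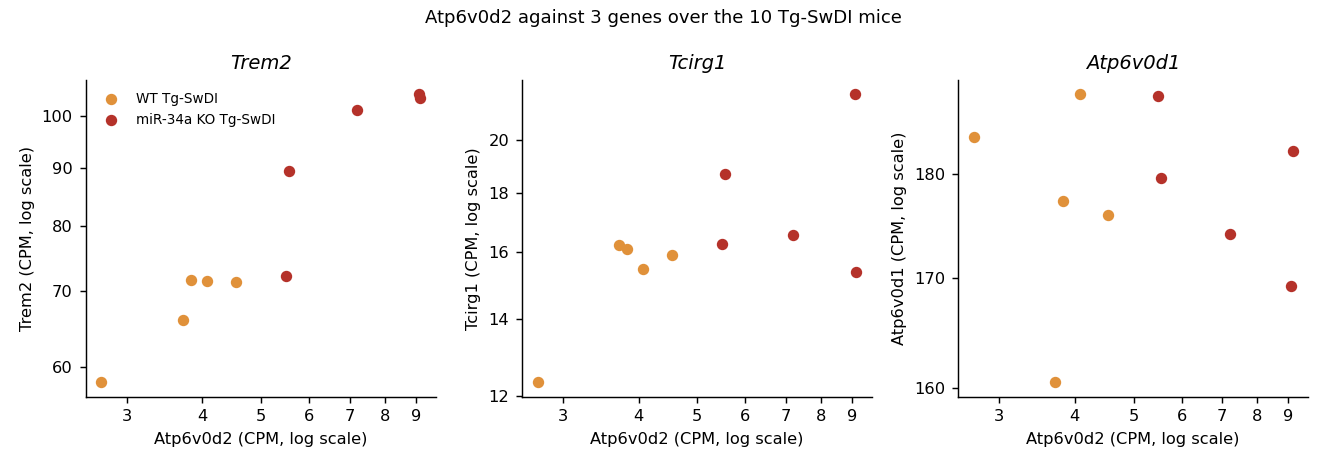
Trem2 (left), Tcirg1 (middle) and Atp6v0d1 (right) against Atp6v0d2 in the 10 Tg-SwDI mice, in CPM on log axes, coloured by miR-34a genotype. Trem2 follows Atp6v0d2 closely (r 0.957), Tcirg1 less so (r 0.659), and Atp6v0d1 does not (r -0.08).

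Because the KO mice lack miR-34a, the 3'UTRs of the members were searched for its seed match. The mature miR-34a-5p of RefSeq lies at chr4:150068473-150068494 on the plus strand of GRCm38.p6, on the same chromosome as Atp6v0d2, and its seed, bases 2 to 8, is in capitals.

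mmu-miR-34a-5p: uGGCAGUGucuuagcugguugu

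The 7 letters that pair with the seed, CACTGCC, occurred in the 3'UTR of 2 of the 10 members, Atp6v0a1 and Atp6v0a2, against 16.9% of 14670 tested genes with an annotated 3'UTR (1 transcript per gene, GENCODE M21). Both sites lie in the 3'UTR on the plus strand and are shown with the match in capitals, and so are those of Atp6v0e and Atp6v1f among the other subunits.

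Atp6v0a1, chr11:101063438-101063459: tcctgcaattcactCACTGCCt
Atp6v0a2, chr5:124722253-124722274: caggtccccgctccCACTGCCt
Atp6v0e, chr17:26697610-26697631: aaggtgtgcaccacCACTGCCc
Atp6v1f, chr6:29470434-29470455: cccaactgtttctcCACTGCCt

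None of the 4 is followed by the A that would extend the match to 8 letters. Between KO and WT Tg-SwDI mice the log2 fold change was 0.07 for Atp6v0a1 (95% interval -0.05 to 0.19, adjusted p = 0.539) and 0.07 for Atp6v0a2 (95% interval -0.04 to 0.18, adjusted p = 0.488), and it was 0.13 for Atp6v0e (adjusted p = 0.467). Without KO Tg-SwDI replicate 8 it was 0.00242 for Atp6v0a1 (adjusted p = 0.986) and 0.09 for Atp6v0a2 (adjusted p = 0.376). Between KO and WT Non-Tg mice it was -0.06 for Atp6v0a1 (95% interval -0.18 to 0.06), 0.00692 for Atp6v0a2 (95% interval -0.10 to 0.12) and -0.16 for Atp6v0e (adjusted p = 0.711). Atp6v1f was not called between KO and WT mice, either in Tg-SwDI or in Non-Tg mice. Atp6v0d2, with its higher counts in KO Tg-SwDI mice, holds no such letters in its 3'UTR of 1378 bases, nor do Atp6v0d1 (438 bases) or Tcirg1 (64 bases).

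Since Mitf, Tfeb and Tfe3 bind E-boxes in lysosomal genes, the promoters of RefSeq (250 bases before to 50 after the start, GRCm38.p6) were searched for CACGTG, a palindrome that reads alike on both strands. The promoters of 6 of the 10 members were in the table, and 2 of the 6, those of Atp6v0d1 and Atp6v1a, held it, against 11.1% of the 12054 tested genes with a promoter there. Each window of 30 bases is read on the strand of its gene, minus in both cases, with the E-box in capitals.

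Atp6v0d1, chr8:105566050-105566079: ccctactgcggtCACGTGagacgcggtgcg
Atp6v1a, chr16:44139373-44139402: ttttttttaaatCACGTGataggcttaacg

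Both also hold the longer TCACGTG, which contains the E-box and occurs in 6.46% of the promoters of tested genes. With the transgene in KO mice, where those 3 factors were called as higher, the log2 fold change was 0.01 for Atp6v0d1 and -0.15 for Atp6v1a. Among the other subunits, the promoters of Atp6v0b and Atp6v0e hold CACGTG and TCACGTG as well. In the same comparison Atp6v0e was called higher by edgeR's quasi-likelihood test (0.50, adjusted p = 0.000546) and Atp6v0b was not called. The part of the 3 factors in these values was not tested. TGACTCA, the AP-1 element, was in 0 of the 6 promoters, against 4.56% of those of tested genes. The promoters of Atp6v0d2, Atp6v0a2, Atp6v1b2 and Atp6v1c1 were not analysed here.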

How the data were processed

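Poly(A) RNA of 20 mouse hippocampi was sequenced as stranded libraries. The authors used STAR for alignment to mm10 and featureCounts for reads per ENSEMBL gene, and the deposited values are these raw counts, which were used as they are. Versions and the strand setting are not given in the sources used here. Symbols and positions came from GENCODE M21 (38872 of 39056 identifiers matched).

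Samples were grouped by genotype and transgene in their labels. Counts were fitted with edgeR 4.0.16 (R 4.3.3, limma 3.58.1) by 1 robust quasi-likelihood model of the 4 group means, with TMM factors and filterByExpr (minimum count 10, minimum total 15), leaving 16107 genes and 16 residual degrees of freedom. P-values were adjusted over all genes tested by the Benjamini-Hochberg method, and genes under 0.05 were called. Standard errors and 95% intervals are on the log2 scale. Isoform ratios used log2 CPM with a prior count of 2 and exact two-sided permutation tests (scipy 1.17.1, Python 3.11.15). Shares used CPM per kilobase of exon. P-values measure the spread between mice. Precision is limited by totals of 19549622 to 21066868 counts, mostly for genes with few counts.

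The genes named were the 10 members, the called genes of the fixed lists and of the members' isoform families, the whole osteoclast list, and the 5 genes most like Atp6v0d2. Members and lists were chosen with earlier results of these data known. The planned tests of Atp6v0d2 between KO and WT Tg-SwDI mice are given as descriptions, since its CPM in all 4 groups took part in its choice. Alternatives were DESeq2 1.42.0, the exactTest, RLE factors, library size alone, no filter, a filter at a mean CPM of 1, a fold change threshold of 0.1 (log2), the 2 compared groups alone, a prior count of 0.5, the replicate number as a block, a choroid plexus covariate, the removal of GC content and length trends, and each mouse left out. Counts relative to homeostatic microglia genes and ratios of summed counts were chosen after seeing the data. The fit was tested on simulated data. Protein sequences were not used here.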

Additional observations from a re-analysis of the deposited data

Results flagged for a closer look

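Of 90 sets of 5 values tested, 4 had a highest or lowest mouse that stood apart. The sets were levels of members and other subunits, and measures of the libraries, each within 1 group. To stand apart, the gap to the nearest of the others had to exceed Dixon's 95% critical value of 0.71 of the range. Chance gives about 1 in 20. Not every listed subunit, isoform share or library measure was among the sets. Atp6v0a2 was 76.8 CPM in KO Non-Tg replicate 2, with the other 4 mice at 69.1 to 71.3. Tcirg1 was 12.3 CPM in WT Tg-SwDI replicate 7, with the others at 15.5 to 16.2, and that mouse also had the lowest Atp6v0d2 and Trem2 of its group. Its summed choroid plexus level, not among the sets, was 128 CPM, with the others of its group at 3265 to 3820. Atp6v1g2 was 971 CPM in KO Tg-SwDI replicate 8, with the others at 481 to 613. The share of counts on mitochondrial genes was 14.6% in the same mouse, with the others of its group at 8.11% to 8.76%.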

How the results depend on the processing

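Over 100 results, 2756 of 2944 alternative values kept their direction and their side of the threshold, as did 1827 of the 1929 values with 1 mouse left out. The 4 members called with the transgene in KO mice became 2 in the fit of the 2 compared groups alone (Tcirg1 and Atp6v1b2) and 1 with the choroid plexus covariate, and between 2 and 4 with 1 mouse left out, with 2 without KO Non-Tg replicate 1, 4, 7 or 8. The cause was not tested. In 4 cases a called value changed sign: Tcirg1 relative to homeostatic microglia genes (-0.23 in WT and -0.36 in KO mice), and Dmxl1 (0.0448) and Clcn3 (0.0353) in KO mice with GC content and length trends removed. In the last setting Atp6v0c was called at -0.18 (adjusted p = 0.0131). For Atp6v0d2 between KO and WT Tg-SwDI mice the log2 fold change stayed between 0.85 and 1.04 in the edgeR and DESeq2 alternatives other than the replicate block, a description with no test. Over all genes that comparison called 320, against 58 in the 2 groups alone, 733 by DESeq2, 217 with library size alone, 188 with GC content and length trends removed and 548 with the choroid plexus covariate. Ratios of summed Atp6v0d2 counts ran from 104 to 312 in WT and from 605 to 806 in KO mice with 1 mouse left out, since 1 Non-Tg mouse holds 2 of the 3 counts in WT mice.

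The replicate numbers share only a label: deviations from the group means correlated at a median of -0.04 over 16 pairs of mice with the same number (-0.40 to 0.15) and 0.01 over 134 pairs with different numbers. With the replicate number as a block, the members called other than Atp6v0d2 were 1 in WT mice, 2 in KO mice and 0 between KO and WT Tg-SwDI mice. In that last comparison Atp6v0d2, as a description, was at 0.61 against 0.95 without the block. Tfe3 was at 0.18 there (adjusted p = 0.401), and 8 genes in all were called. In Non-Tg mice and for the interaction the block gave 0, as without it. Depth limits Atp6v0d2 in Non-Tg mice, where a count of 0 allows up to 3.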
